A study of Mus musculus with 48 samples.

Results

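The HSP90 chaperone machinery was followed in the mouse substantia nigra (SN) through 10 genes: *Hsp90ab1*, *Stip1*, *Fkbp4*, *Ahsa1*, *Cdc37*, *Ptges3*, *Hspa4*, *Hspa4l*, *Chordc1* and *Cryab*. The members were taken by gene symbol from 19601 protein-coding genes, each symbol matched 1 gene, and all 10 had counts high enough to be kept among the 14839 genes tested. Male C57Bl/6J mice received α-synuclein preformed fibrils (PFFs), which seed aggregates of the animal's own α-synuclein, or α-synuclein monomer as the control, into the right striatum, and breathed 21% O2 or 11% O2. The description of the series has all mice at 21% O2 for 6 weeks and then at 11% or 21% O2 for 6 more, whereas the treatment protocol only gives housing in either gas after surgery and a harvest at 12 weeks, and the study describes mice of these 4 kinds as kept in either gas without a break over those 12 weeks. Mice were injected at 121 days of age, and tissue was taken 90 to 98 days later. The groups held 11 monomer mice at 21% O2, 12 PFF mice at 21% O2, 9 monomer mice at 11% O2 and 10 PFF mice at 11% O2, out of 12 sequenced in each. The tissue was dissected SN, a mixture of cell types.

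HSP90 is an abundant ATP-driven chaperone that finishes the folding of protein kinases, steroid hormone receptors and other clients. A client is first held by HSP70, is handed over by the adaptor HOP (*Stip1*) or brought in by the kinase adaptor *Cdc37*, and is then processed as p23 (*Ptges3*), the immunophilin FKBP52 (*Fkbp4*), the ATPase activator AHA1 (*Ahsa1*) and the CHORD protein *Chordc1* bind in turn. The HSP110 proteins *Hspa4* and *Hspa4l* release nucleotide from HSP70, and αB-crystallin (*Cryab*) is an ATP-independent small heat shock protein that is abundant in oligodendrocytes and astrocytes, so these 3 are partners in folding and not HSP90 cochaperones. Unlike the classic inducible heat shock genes, most of the 10 are transcribed at a high level in unstressed brain, and heat shock factor 1 (HSF1) can raise many of them further.

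The dopaminergic markers *Th* and *Slc6a3* were present in every mouse, and no marker of neurons, astrocytes, oligodendrocytes or microglia was at 0 in any mouse. *Th* ranged from 96.1 to 1079 TPM, a level scaled for gene length and library depth. Total counts ran from 12902996 to 17120921 in the 42 mice. The labels split the mice into 3 batches, which the methods tie to the day of euthanasia. Batch 1 held all 4 groups with 3 or 4 mice each, batch 2 held no monomer mice at 11% O2, and batch 3 held no monomer mice at 21% O2. Levels below are from the table that the authors corrected for batch, unless a value is said to be from before correction. The p-values from corrected counts do not carry the error of that correction. The labels do not say whether mice shared a litter or a cage.

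The 10 genes lie on 8 chromosomes of the GRCm38 build. *Hsp90ab1* is on chromosome 17 from 45567775 to 45573271, *Stip1* on chromosome 19 from 7020702 to 7039967, and *Fkbp4* on chromosome 6 from 128429735 to 128438677, all on the minus strand. *Ahsa1* is on chromosome 12 from 87266479 to 87273998 and *Ptges3* on chromosome 10 from 128058954 to 128077272, both on the plus strand. *Hspa4* is on chromosome 11 from 53259814 to 53300457 (minus strand), and *Hspa4l* on chromosome 3 from 40744495 to 40796103 (plus strand). *Cdc37* (21133222 to 21149982, minus strand), *Chordc1* (18292125 to 18317442, plus strand) and *Cryab* (50751325 to 50756636, plus strand) share chromosome 9. *Cryab* overlaps the antisense gene *Hspb2* over 1030 bases, and 252 of its 1479 exon bases lie in exons of *Hspb2*. The counting did not use strand, so reads of the 2 genes cannot be told apart there, but *Hspb2* had at most 16 counts in a mouse against at least 1795 for *Cryab*. *Ptges3* has a processed copy, *Ptges3-ps*, with a median of 169.5 counts against 1840 for *Ptges3* itself, and how reads were split between them is uncertain.

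HSF1 binds inverted repeats of GAA, so the RefSeq promoters (GRCm38.p6, 250 bases before to 50 after the start) were searched on both strands for 3 such units in a row, spelled GAANNTTCNNGAA. These letters were present in 198 of 32851 promoters (0.603%). Of the members, 8 had a promoter in the table and only *Chordc1* among them held the 3-unit letters, in 3 overlapping matches that span positions -4 to 19 around its start (chr9:18292260-18292288, plus strand). The stretch is shown as the only 3-unit match among the members, and capitals mark the matched letters. Whether these letters bear on the level of *Chordc1* was not tested.
Chordc1: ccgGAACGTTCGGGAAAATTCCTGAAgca
The shorter 2-unit letters GAANNTTC, found in 7.86% of promoters, occurred once in *Fkbp4* (chr6:128438790-128438817, minus strand), and TTCNNGAA, found in 8.52%, once in *Cdc37* (chr9:21150087-21150114, minus strand). Both are contained in the 3-unit spelling or its reverse complement.
Fkbp4: cgcttctctaGAAAGTTCtccgctcccg
Cdc37: cggcgggaacTTCCAGAAggcctcacca
The windows of *Stip1*, *Ahsa1*, *Ptges3*, *Hspa4* and *Hspa4l* held none of these letters. For *Stip1* and *Hspa4* the bases right after the start matched no GENCODE transcript of the gene. The window of *Hspa4l* begins inside its gene, at 40745363. That of *Ahsa1* begins at 87266478, beside the first base of its gene at 87266479, so it holds almost nothing upstream of the gene. The stretch shown for *Chordc1* also lies inside its gene, which begins at 18292125. Whether these windows hold the start in use was not tested. Promoters of *Hsp90ab1* and *Cryab* are not shown. Of 6 strongly inducible heat shock genes with a promoter in the table, *Hsph1* alone held the 3-unit letters.

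Levels differed widely among the members. *Hsp90ab1* stood first with a mean over groups of 1779 TPM, followed by *Stip1* with 573 TPM and *Cryab* with 491 TPM. *Fkbp4* (277 TPM), *Hspa4* (235 TPM) and *Ptges3* (217.6 TPM) formed a middle range. *Hspa4l* (126 TPM), *Ahsa1* (106 TPM), *Cdc37* (67.0 TPM) and *Chordc1* (64.6 TPM) were lowest. The order of these means was not tested, and neighbours such as *Cdc37* and *Chordc1* differed by less than the spread among mice. Within a group, the coefficient of variation of *Cryab* was between 8.91% and 14.9% and that of *Chordc1* between 7.70% and 14.2%, whereas that of *Cdc37* was 7.42% at most and 2.25% in the PFF mice at 11% O2.

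**Figure D1:**
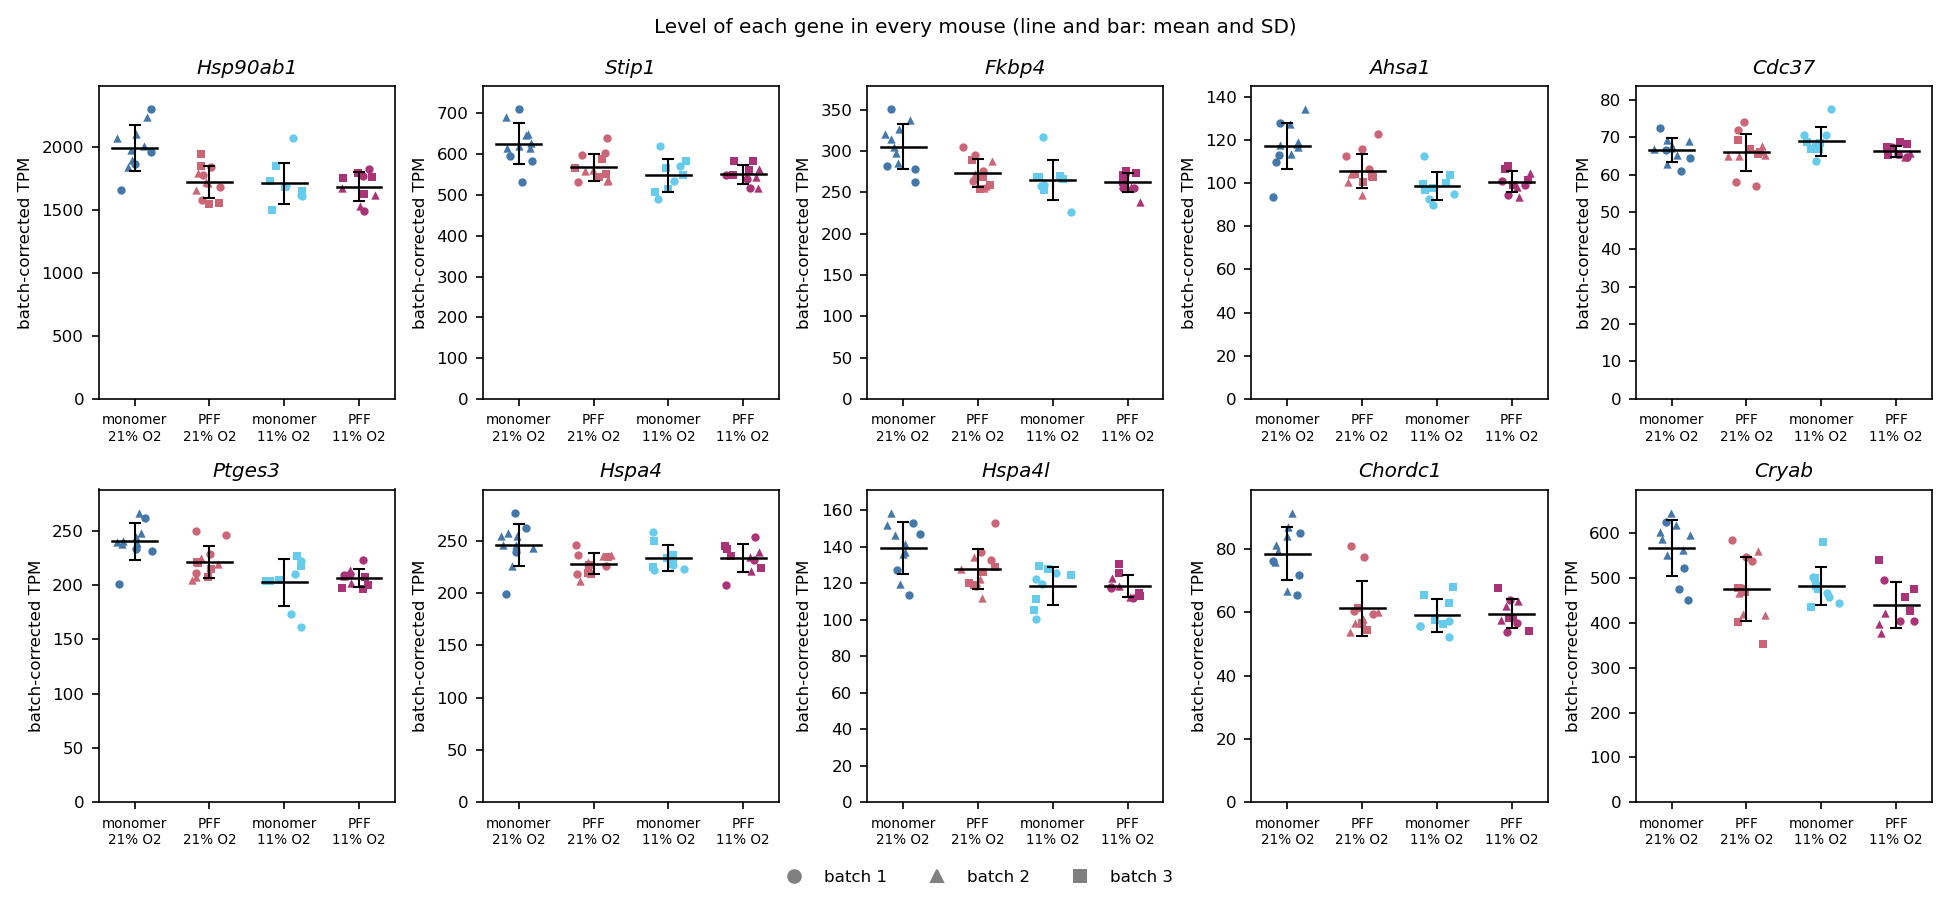
Batch-corrected TPM (vertical axis, from 0) of the 10 genes in each of the 42 mice, by injection and O2, with the mean and SD of each group and a marker shape for each batch. For *Hsp90ab1* the means were 1994 TPM in monomer mice at 21% O2 and 1723, 1712 and 1687 TPM in the other groups, and 9 of the 10 genes had their highest mean in the monomer mice at 21% O2.

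The 9 genes other than *Cdc37* had their highest mean in the monomer mice breathing 21% O2, and *Cdc37* in the monomer mice at 11% O2. A gene is said here to have fallen where its adjusted p was below 0.05 (edgeR's quasi-likelihood test on the batch-corrected counts, 4 groups in 1 fit, Benjamini-Hochberg adjustment over 14839 genes), and it is called where its log2 fold change was also beyond 0.25 either way. With PFF at 21% O2, 4 of 10 members fell, against 3.71% of all genes, and 1 was called lower, against 1.41% of all genes. The sign was negative for 9 of 10 members and 49.6% of all genes, and the median log2 fold change was -0.13 over the members and 0.00 over all genes. With 11% O2 in place of 21% in monomer mice, 8 of 10 members fell, against 6.21% of all genes, and 1 was called lower, against 2.55%. The sign was negative for 9 of 10 members and 52.1% of all genes, with medians of -0.22 and -0.01. In PFF mice at 11% O2 against monomer mice at 21% O2, 8 of 10 members fell, against 2.8% of all genes, and 2 were called lower, against 1.41%. The sign was negative for 9 of 10 members and 51.2% of all genes, with medians of -0.20 and 0.00. No member rose in any of the 3. These 3 comparisons share the 11 monomer mice at 21% O2, so a high level in those mice enters each of them. The members were chosen with earlier results of these data known. The counts beside all genes therefore describe the 10 genes and do not test them as a set.

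In the 2 comparisons without those mice, no member passed. PFF against monomer at 11% O2 gave 0 of 10 members in edgeR, 0 in DESeq2 and 0 in limma, with 0 of 10 at an unadjusted p below 0.05 against 3.92% of all genes, and 0% of all genes passed the adjusted p. The sign was negative for 4 of 10 members and 50.4% of all genes. Breathing 11% O2 in PFF mice gave 0 of 10 members in the same 3 tools, against 0.815% of all genes past the adjusted p and 0.58% called, with 2 members, *Ptges3* and *Hspa4l*, at an unadjusted p below 0.05 against 10.7% of all genes. There the sign was negative for 8 of 10 members and 53.2% of all genes. The lowest bound of the 95% intervals in these comparisons was -0.27 on the log2 scale and the highest 0.16. In none of the 5 comparisons between groups were the TPM ranges of a member apart, which held for 0.0404% of all genes with PFF at 21% O2, 0% with PFF at 11% O2, 0.391% with 11% O2 in monomer mice, 0.0876% with 11% O2 in PFF mice and 0.303% for PFF at 11% O2 against monomer at 21% O2.

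**Figure D2:**
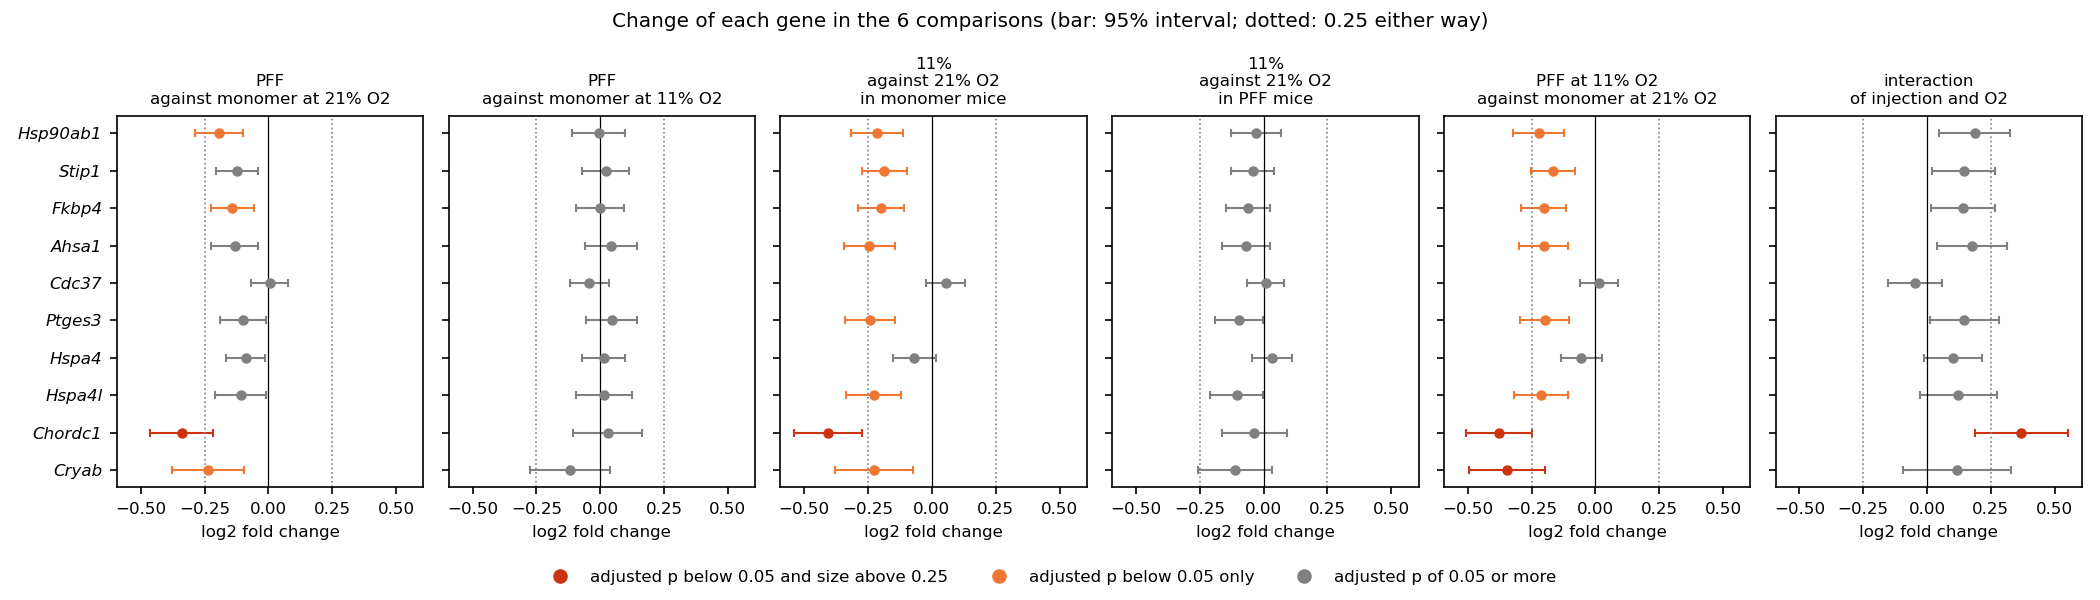
Log2 fold change with its 95% interval (horizontal axis) of each gene in the 6 comparisons, with dotted lines at 0.25 either way and colour for the test result. *Chordc1* was called in 4 of the 6 panels and *Cryab* in 1, and in both panels without the monomer mice at 21% O2 every interval except those of *Ptges3* and *Hspa4l* in PFF mice crossed 0.

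*Hsp90ab1* encodes HSP90β, the constitutive HSP90 of the cytosol. It ran from 1662 TPM through a median of 1981 to 2302 TPM in monomer mice at 21% O2, and from 1548 through 1718 to 1947 TPM in PFF mice at 21% O2. All 12 PFF mice lay below the monomer median, although the ranges overlapped. The gene fell by 12.5% with PFF at 21% O2 (log2 fold change -0.19, SE 0.0465, adjusted p = 0.00759, edgeR). At 11% O2 the monomer mice ran from 1500 through 1680 to 2073 TPM and the PFF mice from 1491 through 1716 to 1829 TPM. It fell by 13.9% with 11% O2 in monomer mice (log2 fold change -0.22, SE 0.0503, adjusted p = 0.00306, edgeR), and its change with 11% O2 in PFF mice was -0.03 (SE 0.0478, adjusted p = 0.869).

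*Stip1*, whose product HOP bridges HSP70 and HSP90, ran from 531 through 621 to 711 TPM in monomer mice at 21% O2. The PFF mice at 21% O2 spanned 533 to 640 TPM with a median of 560, and 11 of 12 lay below the monomer median. Its log2 fold change with PFF at 21% O2 was -0.12 (SE 0.0407, adjusted p = 0.0559, edgeR). In monomer mice at 11% O2 it spanned 491 to 619 TPM with a median of 548, and all 9 lay below the median at 21% O2, and it fell by 12.1% (log2 fold change -0.19, SE 0.0440, adjusted p = 0.00342, edgeR).

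The steroid receptor cochaperone *Fkbp4* fell with PFF at 21% O2 (log2 fold change -0.14, SE 0.0416, adjusted p = 0.0296, edgeR) and with 11% O2 in monomer mice (-0.20, SE 0.0450, adjusted p = 0.00214). The first of these missed the threshold with the replicate number as a block (adjusted p = 0.0609) and with only the 2 groups in the fit (adjusted p = 0.0502). Its medians were 305 TPM in monomer mice at 21% O2, 270 TPM in PFF mice at 21% O2, 266 TPM in monomer mice at 11% O2 and 261 TPM in PFF mice at 11% O2. *Ahsa1*, which speeds the HSP90 ATPase, and *Ptges3*, which holds the closed clamp, did not pass with PFF at 21% O2, with log2 fold changes of -0.13 (adjusted p = 0.0644) and -0.10 (adjusted p = 0.162). With 11% O2 in monomer mice *Ahsa1* fell by 15.6% (adjusted p = 0.000557, edgeR) and *Ptges3* fell by 15.5% (adjusted p = 0.000523). All 9 monomer mice at 11% O2 lay below the 21% O2 median for both genes, which was 118 TPM for *Ahsa1* and 240 TPM for *Ptges3*.

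The kinase adaptor *Cdc37* went with none of these. Its 4 medians were 66.9 TPM in monomer mice and 65.8 TPM in PFF mice at 21% O2, and 68.5 TPM and 65.7 TPM in the same order at 11% O2. The log2 fold change with PFF at 21% O2 was 0.00 with a 95% interval from -0.07 to 0.08, and that with 11% O2 in monomer mice was 0.05 with an interval from -0.02 to 0.13.

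*Chordc1* encodes a zinc-binding HSP90 partner that is also named morgana. Its level in monomer mice at 21% O2 ran from 65.5 through 79.3 to 91.5 TPM. In PFF mice at 21% O2 it ran from 53.8 through 58.7 to 81.0 TPM, and 10 of these 12 mice lay below the lowest monomer mouse. The 2 exceptions, at 77.5 and 81.0 TPM, both came from batch 1. Monomer mice at 11% O2 ran from 52.3 through 57.3 to 68.0 TPM, with 7 of 9 below every monomer mouse at 21% O2, and PFF mice at 11% O2 ran from 53.7 through 58.3 to 67.8 TPM, with 9 of 10 below. The ranges therefore overlapped in each comparison.

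*Chordc1* fell by 21.0% with PFF at 21% O2 (log2 fold change -0.34, SE 0.0606, adjusted p = 0.000325, edgeR) and fell by 24.5% with 11% O2 in monomer mice (-0.41, SE 0.0657, adjusted p = 3.94e-05). It fell by 23.0% in PFF mice at 11% O2 against monomer mice at 21% O2 (-0.38, SE 0.0638, adjusted p = 0.000132). Its change with PFF at 11% O2 was 0.03, with a 95% interval from -0.11 to 0.16. The 3 groups other than monomer at 21% O2 had means of 61.3, 59.1 and 59.6 TPM, which differed by less than the SD within any of them.

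The interaction term asks whether the change with PFF differed between 11% and 21% O2. *Chordc1* alone passed it among the members, with a difference of 0.37 on the log2 scale (SE 0.0904, adjusted p = 0.0181, edgeR), and it was called higher, as were 1.1% of all genes, while 1.24% passed the adjusted p in that direction. The estimate was below 0 for 1 of 10 members and 50.3% of all genes, with a median of 0.14, against a median of 0.00 over all genes tested. *Hsp90ab1* (0.19, adjusted p = 0.152) and *Ahsa1* (0.17, adjusted p = 0.171) came next and did not pass.

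Of the HSP110 genes, *Hspa4l* fell by 14.6% with 11% O2 in monomer mice (log2 fold change -0.23, SE 0.0537, adjusted p = 0.0034, edgeR), from a median of 141 TPM at 21% O2 to 122 TPM at 11% O2, and all 9 mice at 11% O2 lay below the 21% O2 median. *Hspa4* changed by -0.07 in the same comparison (adjusted p = 0.279), with medians of 246 and 228 TPM. Neither passed with PFF at 21% O2, where the changes were -0.11 for *Hspa4l* (adjusted p = 0.181) and -0.09 for *Hspa4* (adjusted p = 0.151). Whether the 2 genes differed from each other was not tested.

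*Cryab* had its lowest mean, 440 TPM, in the PFF mice at 11% O2, as *Hsp90ab1* and *Fkbp4* did. It ran from 450 through 587 to 646 TPM in monomer mice at 21% O2 and from 353 through 473 to 585 TPM in PFF mice at 21% O2, with all 12 PFF mice below the monomer median. At 11% O2 it ran from 435 through 475 to 580 TPM in monomer mice and from 378 through 424 to 541 TPM in PFF mice, of which 6 of 10 lay below every monomer mouse. *Cryab* fell by 15.0% with PFF at 21% O2 (adjusted p = 0.0303, edgeR), fell by 14.6% with 11% O2 in monomer mice (adjusted p = 0.0369) and fell by 21.3% in PFF mice at 11% O2 against monomer mice at 21% O2 (adjusted p = 0.00208). The fall with 11% O2 in monomer mice did not pass on counts before correction with batch as a covariate (adjusted p = 0.124 in 42 and 0.149 in 48 mice) or with no batch term (0.265), with the replicate number as a block (0.0821), or without replicate 11 of the monomer mice at 11% O2 (0.0547). That with PFF at 21% O2 did not pass with no batch term or with only the 2 groups in the fit. The change with PFF at 11% O2 was -0.12 on the log2 scale, with a 95% interval from -0.27 to 0.04 (adjusted p = 1.00).

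The batches were next taken 1 at a time, on the counts before correction. With PFF at 21% O2 in batch 2 (4 PFF against 7 monomer mice), 7 of 10 members passed the adjusted p, against 5.43% of all genes. Of the members, 3 were called, *Chordc1*, *Cryab* and *Ahsa1*, against 580 of 14837 genes. In batch 1, with 4 mice a group, 0 of 10 members passed in edgeR, against 0.0609% of all genes, and only *Hsp90ab1* had an unadjusted p below 0.05. *Chordc1* in batch 2 ran from 61.2 through 74.6 to 83.7 TPM in monomer mice and from 49.2 through 52.6 to 55.3 TPM in PFF mice. Its log2 fold change there was -0.49 (SE 0.0668). The share of all genes with ranges apart within a batch was not counted. In batch 1 *Chordc1* ran from 65.0 through 72.3 to 81.6 TPM and from 58.0 through 66.6 to 76.3 TPM, a log2 fold change of -0.10 (SE 0.0907). *Cryab* changed by -0.35 (SE 0.0798) in batch 2 and by 0.03 (SE 0.0808) in batch 1, and *Ahsa1* by -0.29 (SE 0.0569) and 0.00 (SE 0.0544). *Hsp90ab1* had similar values in both, -0.22 (SE 0.0539) in batch 2 and -0.16 (SE 0.0639) in batch 1.

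A test of the difference between the 2 batches, added after these values were seen, gave an adjusted p below 0.05 for 0 of 10 members (edgeR, 19 mice), and 64 of 14809 genes passed it. At an unadjusted p below 0.05 there were 6 members, against 14.9% of all genes, led by *Ahsa1* with -0.30 (SE 0.0813, adjusted p = 0.1) and *Chordc1* with -0.40 (SE 0.122, adjusted p = 0.152).

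Breathing 11% O2 in monomer mice can be compared within batch 1 alone. There the change of *Chordc1* was -0.42 (SE 0.0912, edgeR, adjusted p = 0.0317). Its 4 mice at 11% O2 ran from 52.0 to 56.2 TPM and the 4 at 21% O2 from 65.0 to 81.6 TPM. *Ptges3* changed by -0.26 (SE 0.0551, adjusted p = 0.0292), and the other members did not pass, where 2.46% of all genes did, with *Hsp90ab1* at -0.16 (adjusted p = 0.183) and *Cryab* at -0.15 (adjusted p = 0.317). The median over the members was -0.16 there and -0.22 over all batches. In PFF mice the 3 batches gave medians of -0.12, 0.00 and 0.03, and *Chordc1* changed by -0.25, 0.12 and 0.06 in batches 1, 2 and 3. For PFF mice at 11% O2 against monomer mice at 21% O2, *Chordc1* had -0.34 in batch 1 (adjusted p = 0.317) and -0.37 in batch 2 (adjusted p = 0.0247), and *Cryab* had -0.25 (adjusted p = 0.512) and -0.55 (adjusted p = 0.00811).

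**Figure D3:**
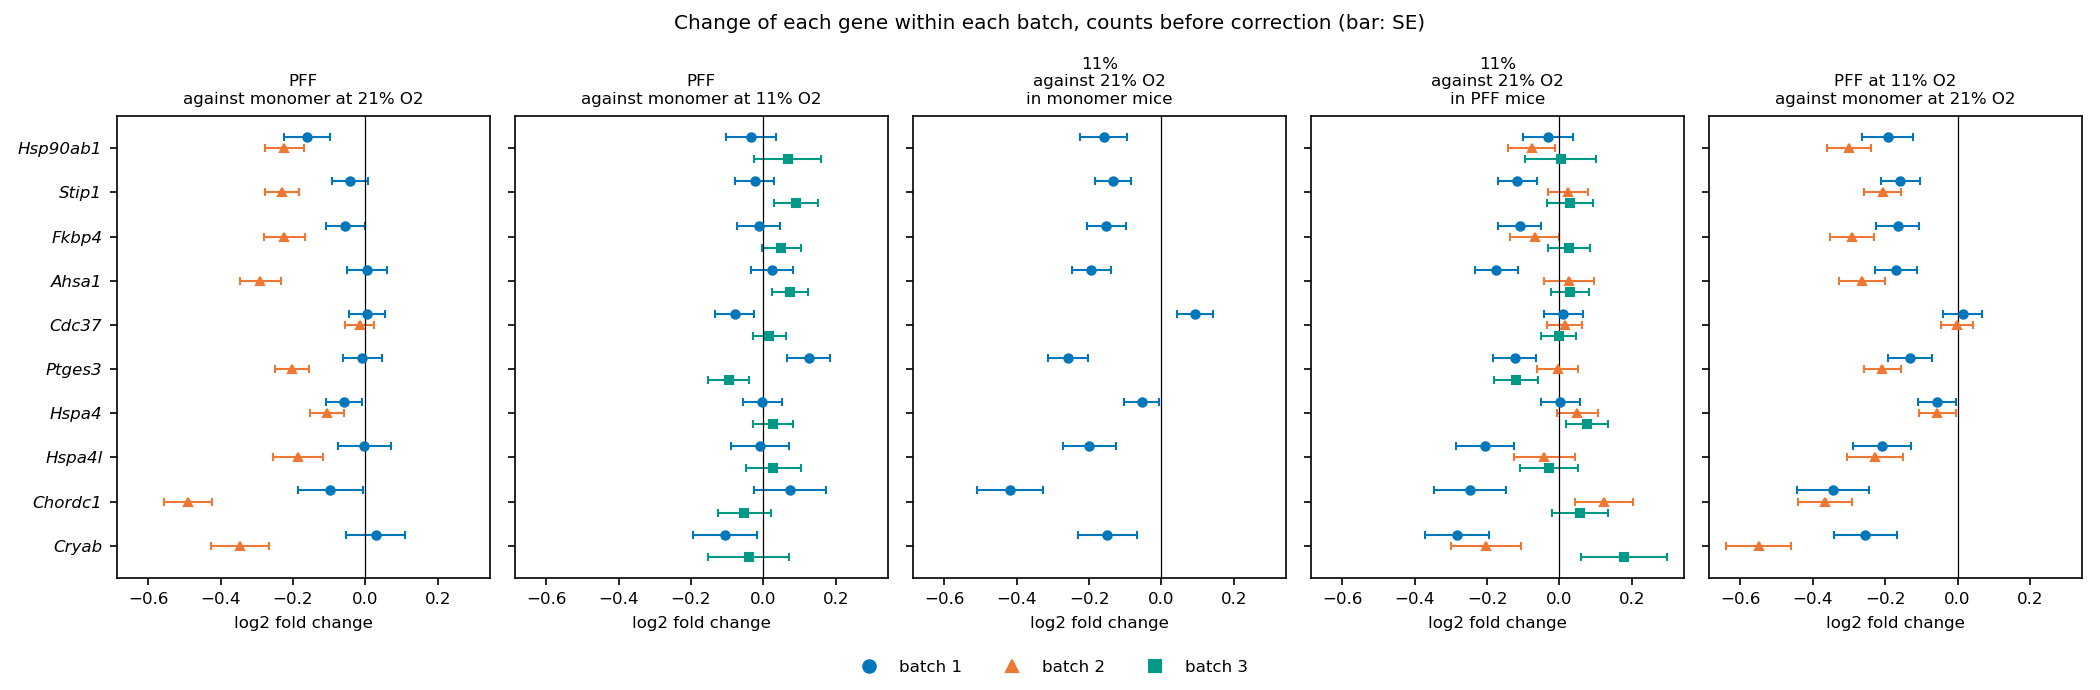
Log2 fold change with its SE (horizontal axis) of each gene within each batch, from counts before correction, in the 5 comparisons between groups, with a marker for each batch that held both groups. With PFF at 21% O2, *Chordc1* was at -0.49 in batch 2 and -0.10 in batch 1, and with 11% O2 in monomer mice it was at -0.42 in batch 1.

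Genes around the members were read from lists. The other HSP90 paralogs are *Hsp90aa1*, the stress-inducible cytosolic form, *Hsp90b1* of the endoplasmic reticulum and *Trap1* of mitochondria. With PFF at 21% O2, 0 of 3 passed in edgeR, and with 11% O2 in monomer mice *Hsp90aa1* (-0.24, adjusted p = 0.000572) and *Hsp90b1* (-0.22, adjusted p = 0.00561) fell. Of 29 other HSP90 cochaperones tested, 1 fell and 1 rose with PFF at 21% O2, and 3 fell and none rose with 11% O2 in monomer mice. The gene called in both was *Ahsa2*, a relative of *Ahsa1*, which fell by 0.62 on the log2 scale with PFF at 21% O2 (adjusted p = 3.54e-07, edgeR) and by 0.72 with 11% O2 in monomer mice (adjusted p = 3.37e-08). The median of these 29 was 0.01 and 0.00 in the 2 comparisons, while that of the members was -0.13 and -0.22.

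Among the 8 HSP70 partners, 5 fell with PFF at 21% O2 and 4 with 11% O2 in monomer mice, and none rose. *Hsph1*, the inducible HSP110, changed by -0.48 (adjusted p = 7.52e-06, edgeR) and -0.66 (adjusted p = 2.69e-08). *Bag3*, an HSP70 nucleotide exchange factor, was called with PFF at 21% O2 (-0.28, adjusted p = 0.0377) and not with 11% O2 in monomer mice (-0.19, adjusted p = 0.172). *Bag1*, another such factor, was called higher with 11% O2 in PFF mice (0.28, adjusted p = 0.0310) and for the interaction (0.48, adjusted p = 0.00400). Of 3 small heat shock proteins tested, *Hspb1* was called in both comparisons, with -0.84 (adjusted p = 0.00143) and -1.02 (adjusted p = 0.000198). Both heat shock factors fell with 11% O2 in monomer mice, *Hsf1* by 0.20 (adjusted p = 0.00926) and *Hsf2* by 0.21 (adjusted p = 0.00771), and neither passed with PFF at 21% O2.

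Transcripts of 13 known HSP90 clients, among them kinases, nuclear receptors and the Parkinson's disease kinase LRRK2, gave 1 past the adjusted p with PFF at 21% O2, *Lrrk2* (-0.20, adjusted p = 0.0293, edgeR). With 11% O2 in monomer mice 0 of 13 passed in edgeR, with *Lrrk2* (-0.16, adjusted p = 0.0901) and *Braf* (-0.11, adjusted p = 0.105) at the smallest p. The strongly inducible heat shock list, 5 of whose 8 genes also stand in the lists above, had medians of -0.59 and -0.76, with 6 and 5 genes called, all lower. The HSP40 gene *Dnajb1* changed by -0.71 and -0.87, and the HSP70 genes *Hspa1a* by -1.60 and -2.09 and *Hspa1b* by -2.39 and -3.14, and these last 2 are near-identical copies between which reads are uncertain. The list also holds *Hspa8*, the constitutive HSP70. Whether the members fell less than the genes of this list was not tested.

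**Figure D4:**
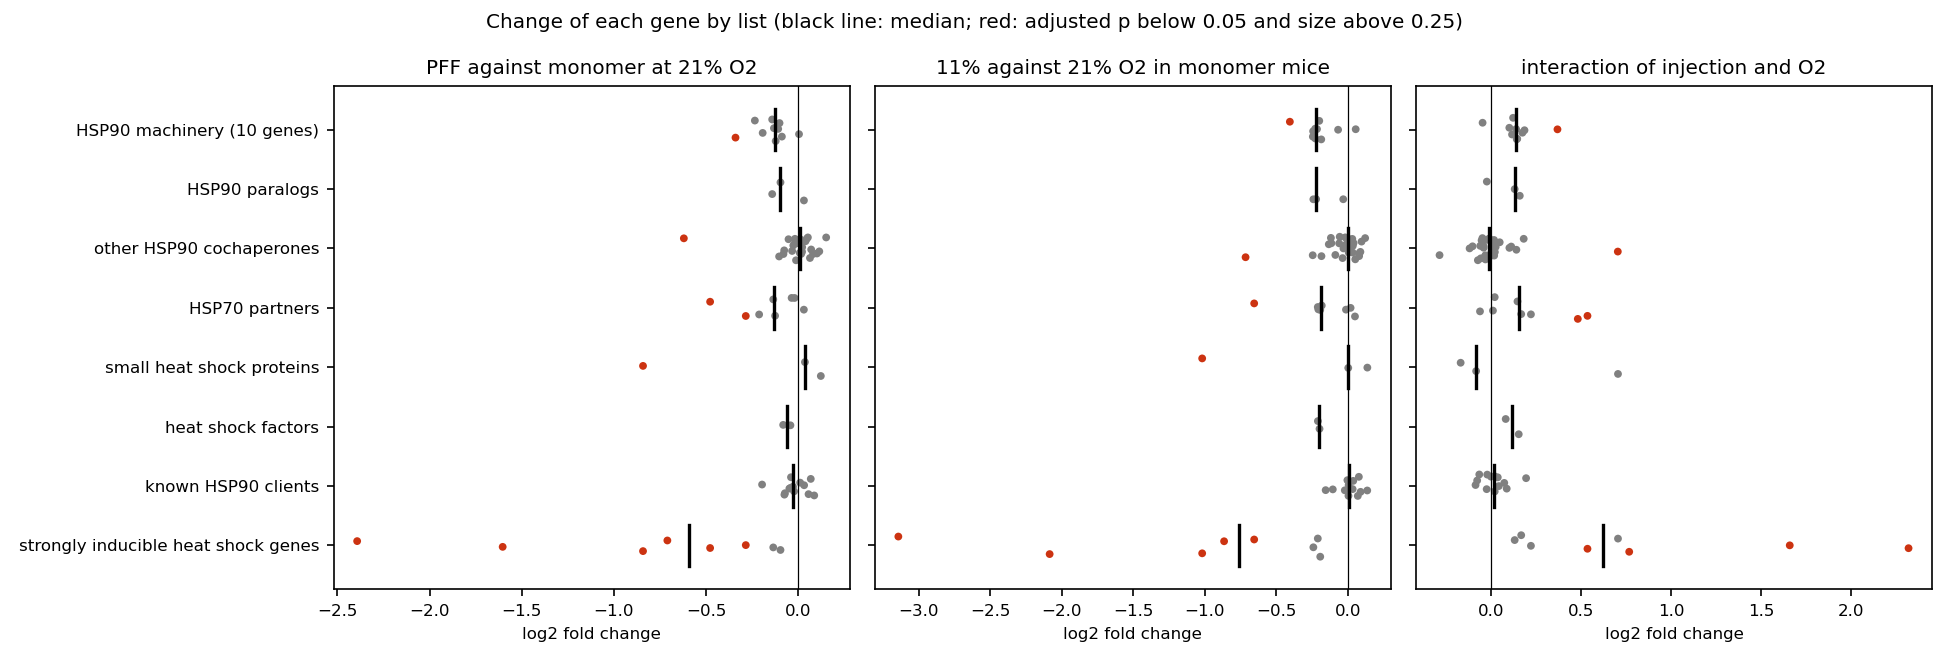
Log2 fold change (horizontal axis) of each tested gene by list in 3 comparisons, with a black line at each list's median and red points for called genes. With 11% O2 in monomer mice the median of the 10 genes was -0.22, that of the inducible heat shock genes -0.76 and that of the HSP90 clients 0.01.

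In monomer mice, 11% O2 also came with changes in markers of vessel cells. All 6 endothelial and all 5 pericyte markers were called higher, with medians of 0.52 and 0.58 on the log2 scale. The summed endothelial level ran from 201.02 to 271 TPM in monomer mice at 21% O2 and from 270 to 499 TPM at 11% O2, and the summed pericyte level from 184.9 to 307 TPM and from 245 to 568.1 TPM, with no marker at 0. Of 9 oligodendrocyte markers, 5 rose in that comparison with a median of 0.23, and summed levels ran from 6243 to 8544 TPM at 21% O2 and from 6402 to 10227 TPM at 11% O2. None of the 8 dopaminergic, 6 neuronal, 8 astrocyte, 8 microglial or 3 choroid plexus markers tested passed in edgeR there. In PFF mice at 11% O2 against monomer mice at 21% O2, 4 of 5 pericyte, 2 of 6 endothelial and 1 of 9 oligodendrocyte markers were called higher, with medians of 0.40, 0.37 and 0.13. With 11% O2 in place of 21% in PFF mice, 2 of 6 endothelial and 2 of 5 pericyte markers were called higher. Their medians were 0.35 and 0.34 there, while 0 of 10 members passed, with a median of -0.05. With PFF at 21% O2, 3 oligodendrocyte markers and 1 endothelial marker rose, and none of the other lists held a gene past the adjusted p. The part of cell composition in the members' levels was not tested, and in bulk tissue fewer cells of a type and less RNA per cell cannot be told apart.

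From mouse to mouse, some pairs of members varied together and others did not. After the mean of each group in each batch was taken out of the log2 CPM (counts scaled by library size) before correction, the 45 pairs of members had a median Pearson r of 0.17 over 42 mice, and 32 pairs were above 0. The closest pair was *Hsp90ab1* and *Fkbp4* (r = 0.80), followed by *Hspa4* and *Hspa4l* (0.67), *Stip1* and *Ahsa1* (0.66) and *Hspa4l* and *Chordc1* (0.59). The lowest values were between *Cdc37* and *Hspa4l* (-0.52) and between *Cryab* and *Hspa4l* (-0.51). These are descriptions over mice that share a scaling by depth, and pairs of other genes were not set beside them.

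Set against the mean of the other 9 members, *Stip1* had r = 0.64 and Spearman's rho = 0.62, and r = 0.63 without the 2 mice farthest from the median. *Ahsa1* had r = 0.60 and rho = 0.53, *Hspa4* r = 0.51 and rho = 0.52, *Hsp90ab1* r = 0.50 and rho = 0.46, and *Fkbp4* r = 0.49 and rho = 0.50. *Hspa4l* (r = 0.25), *Ptges3* (0.24), *Chordc1* (0.17), *Cdc37* (-0.03) and *Cryab* (-0.17) were lower. On batch-corrected counts with group means taken out, *Ahsa1* was highest (r = 0.70), *Stip1* had 0.63, *Chordc1* 0.52 and *Cryab* 0.15. The tested genes outside the members that were most alike to their mean were *Setd7* (r = 0.70), a lysine methyltransferase, *St13* (0.70), *Hspa8* (0.67), the constitutive HSP70, *Calr* (0.66), a chaperone of the endoplasmic reticulum, and *Hsph1* (0.65), over 42 mice. The highest 1% of 14829 genes began at r = 0.48.

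*Cryab* tracked the oligodendrocyte markers *Mobp*, *Mog*, *Mbp*, *Mag*, *Cnp*, *Cldn11*, *Opalin*, *Ermn* and *Aspa*. Its residual level had r = 0.82 with the mean of their residual z-scores (two-sided permutation within group and batch, p = 1e-05, the smallest that 100000 draws can give, adjusted p = 0.00011 over 11 relations) and rho = 0.73 (permutation p = 2e-05, adjusted p = 0.00022). Without the 2 mice farthest from the median of the markers, r was 0.79. With the batch-corrected counts and only group means taken out, r was 0.66. No other member and no other marker list was tested in this way. Between groups, *Cryab* and the markers did not always move together. With 11% O2 in monomer mice the median log2 fold change of the markers was 0.23 and the change of *Cryab* was -0.23. With PFF at 11% O2 these were -0.11 and -0.12.

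**Figure D5:**
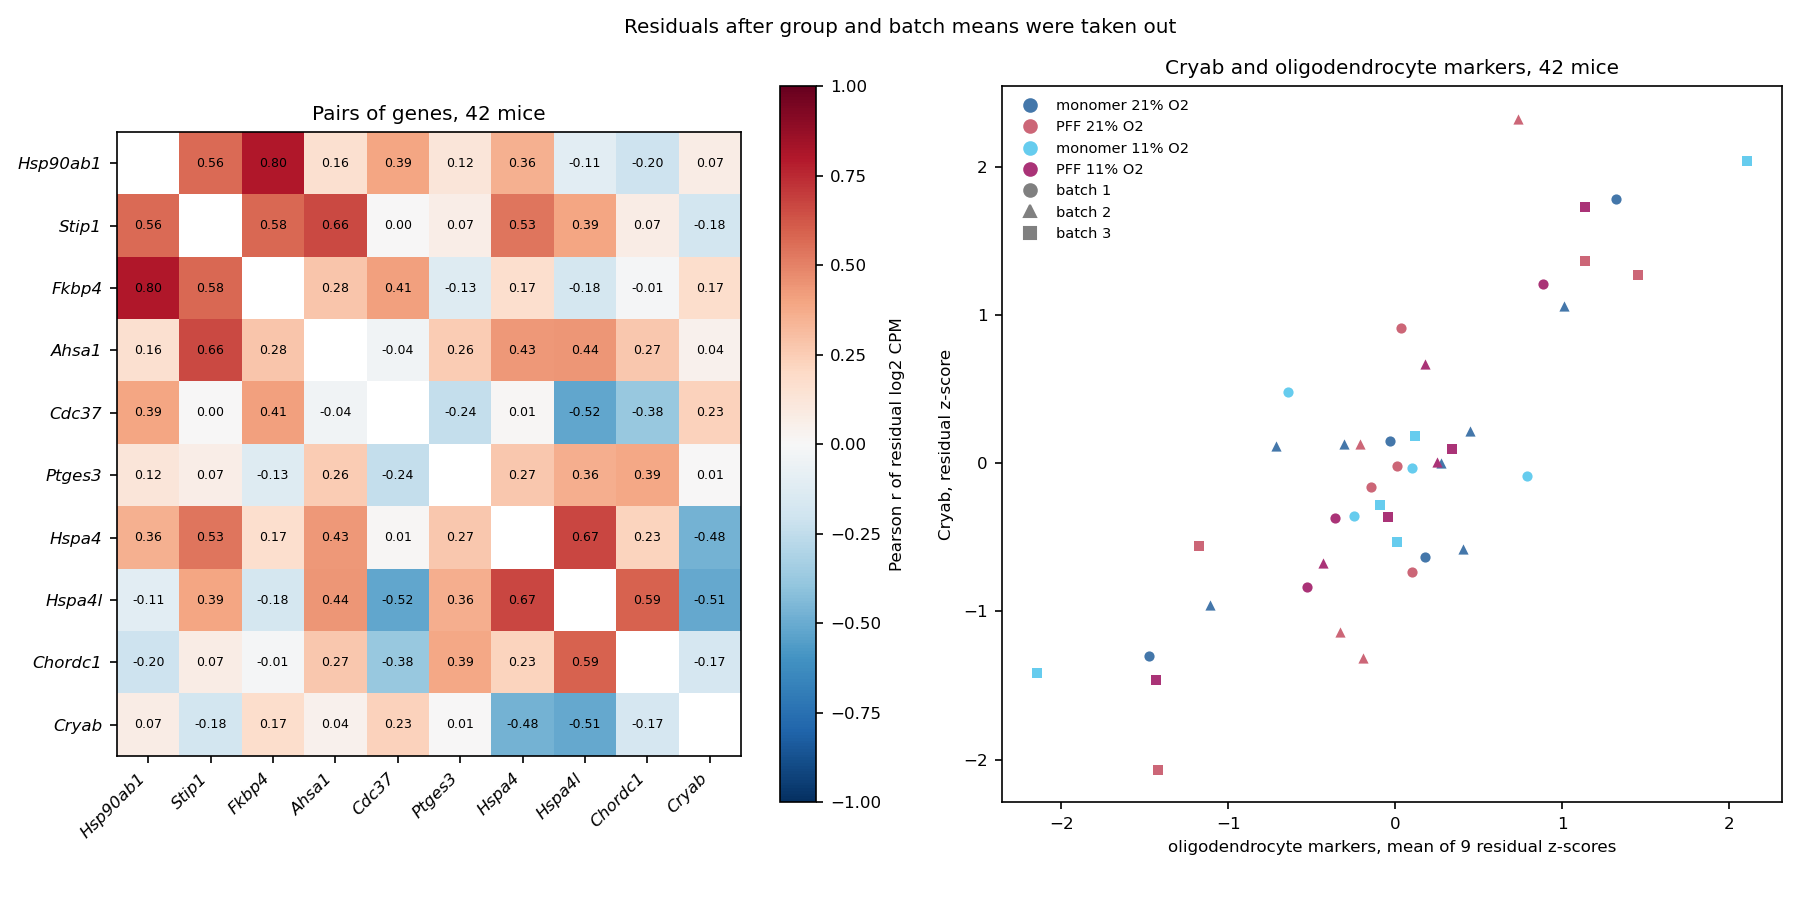
Left, Pearson r of residual log2 CPM for each pair of the 10 genes over 42 mice, from counts before correction with group-by-batch means taken out. Right, the residual z-score of *Cryab* (vertical axis) against the mean residual z-score of 9 oligodendrocyte markers (horizontal axis) in each mouse, by group and batch, with r = 0.82.

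The 6 mice that the authors left out after a principal component analysis have values before correction. Of their 60 member values, 29 lay within the range of the kept mice of the same group and batch, 24 below and 7 above. A PFF mouse at 11% O2 in batch 1, the library with 3134594 counts, held 8 of the 24 low values, with *Hspa4l* at 48.5 TPM and *Stip1* at 353 TPM. The omitted monomer mouse at 21% O2 had 86.3 TPM of *Chordc1*, above all 7 kept mice of its group and batch.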

How the data were processed

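Poly(A) RNA of the SN of 48 mice was sequenced by the authors. Per their methods, ribosomal reads were removed, reads were aligned with STAR 2.7.5a to mm10, duplicates were removed with Picard 2.21.9, and fragments were counted per gene with featureCounts 2.0.1 on GENCODE annotation, without strand and with multi-mapped reads kept at their primary site. The deposited counts are whole-number counts per gene, before correction (48 mice) and after ComBat-seq correction for batch with O2 and injection kept as covariates (42 mice, protein-coding genes). The deposited TPM values were made by the authors from each count table. The p-values from the corrected counts, above and below, do not carry the error of that correction.

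From the corrected counts, genes were kept by filterByExpr, scaled by TMM and tested with edgeR 4.0.16 in R 4.3.3 in 1 fit of 4 groups without a batch or replicate term. Adjusted p used a threshold of 0.05, with a log2 fold change beyond 0.25 for a call, and the 95% intervals used 38 residual degrees of freedom. Alternatives were DESeq2 1.42.0, limma 3.58.1 on log2(TPM + 1), log2(TPM + 0.1) or genes with a mean TPM of at least 1, other scaling, filtering, batch handling and mice. The edgeR steps were tested on simulated data. Residuals are of log2 CPM with a prior count of 2, and the relation between *Cryab* and the markers used 100000 permutations. Gene positions are from GENCODE for GRCm38 (vM21), whereas the counting used a later release; the listed version of *Hspa4l* differs from that in the files. Totals of 12902996 to 17120921 counts put at least 1374 counts behind each member in each kept mouse. Counting error was not separated from the spread among mice, and the lowest spread, of *Cdc37*, was a coefficient of variation of 2.25%. A marker of the oligodendrocyte list is not reported here, and its values entered no result on that list. The members and gene lists were chosen with earlier results of these data known. The rule for named genes was all 10 members, of each pathway list at most the called genes or, where none was called, the 2 with the smallest p, and the 5 genes most alike to the members. Cell type markers are given by count. Where no label gives litter or cage, p-values measure the spread among these mice.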

Additional observations from a re-analysis of the deposited data

Results flagged for a closer look

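*Chordc1* was flagged because its change with PFF differed between the O2 levels. The difference was 0.37 on the log2 scale (SE 0.0904, adjusted p = 0.0181, edgeR's quasi-likelihood test), and in batch 1 alone, the only batch with all 4 groups, it was 0.17 (SE 0.134, adjusted p = 0.628).

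In batch-corrected TPM, 3 of 20 sets of a gene in a group of 9 or 10 mice had 1 mouse far from the others. Chance gives about 1 in 20. In monomer mice at 11% O2, replicate 3 of batch 1 had 317 TPM of *Fkbp4*, with the next mouse at 270 TPM, and 77.6 TPM of *Cdc37*, with the next at 70.7 TPM. In the same group, replicate 7 of batch 3 had 580 TPM of *Cryab*, with the next mouse at 502 TPM. Before correction, replicate 3 had 267 TPM of *Fkbp4* and 66.4 TPM of *Cdc37*, with the next mouse at 250 and 64.4 TPM. Replicate 7 had 606 TPM of *Cryab* before correction, with the next mouse of the group at 518 TPM. Whether a mouse stood apart before correction was not tested.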

How the results depend on the processing

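Of 880 values of a member in a comparison under another setting, 838 kept their sign and 42 did not. The 880 include the setting of adjusted p alone, which drops the fold change threshold but reuses the main fit. Its values therefore keep their sign by construction and test nothing about the sign. Of the 42, 1 had passed the adjusted p: *Cryab* with PFF at 21% O2, at 0.029 in batch 1 alone. *Chordc1* was called in 14 of 15 alternatives with PFF at 21% O2 (-0.49 to -0.10), in 14 of 14 with 11% O2 in monomer mice (-0.44 to -0.39), and in 12 of 13 for the interaction (0.17 to 0.41), batch 1 alone being the exception in each comparison that had one. Adjusted p alone is among these alternatives, and that looser rule must call *Chordc1* wherever the main rule does. The adjusted p of *Chordc1* over those alternatives ran from 5.5e-06 to 0.627, 1.45e-07 to 0.0317 and 0.0058 to 0.628.

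The number of members called with PFF at 21% O2 was 1. It was 4 by adjusted p alone, 2 with batch as a covariate on counts before correction in 42 and in 48 mice, 0 and 3 in batches 1 and 2 alone, and 2 in each of the 3 limma fits (*Chordc1* and *Cryab*). The number past the adjusted p was 4, and it was 8 with batch as a covariate in 42 mice, 8 with no batch term, 0 in batch 1, 7 in batch 2 and 2 with only the groups compared in the fit. With 11% O2 in monomer mice 1 was called, against 8 by adjusted p alone, 2 and 3 with batch as a covariate in 42 and 48 mice, 4 with no batch term, 2 in batch 1 and 2 in each limma fit, and 8 passed the adjusted p, against 2 in batch 1. In PFF mice at 11% O2 against monomer mice at 21% O2, 2 were called, against 8 by adjusted p alone, 4 with no batch term, 0 in batch 1 and 4 in batch 2, and 8 passed the adjusted p, against 0 in batch 1 and 4 in batch 2. For the interaction 1 was called, against 0 in batch 1, and 1 passed the adjusted p, against 3 with batch as a covariate in 42 mice, 5 with no batch term and 0 in batch 1. Over all genes, 9 of 14768 were called with PFF at 21% O2 in batch 1 and 580 of 14837 in batch 2. With 11% O2 in monomer mice in batch 1 it was 297 of 14768. For PFF at 11% O2 against monomer at 21% O2 it was 24 of 14768 in batch 1 and 157 of 14837 in batch 2. There 0.163% and 1.13% of all genes passed the adjusted p. The interaction gave 11 of 14768 in batch 1. Under most other settings the counts over all genes are not given here. The shifts of the members there are therefore not read as particular to them. Batches alone hold 3 to 7 mice a group. The cause of the other shifts was not tested.

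With the replicate number as a replicate block, 4 members were called with 11% O2 in monomer mice (*Ahsa1*, *Chordc1*, *Hspa4l* and *Ptges3*), and no other count of calls moved by over 1.5 times. The count over all genes in that fit is not given here. The study matched mice across groups by weight, age, delivery date and, where it could, cage, but the labels do not say whether the replicate number marks a matched set. Over 54 pairs of the same number the correlation of deviations ran from -0.40 to 0.56, and in 13 of 108 cases a mouse was closest to the one with its own number. Leaving out monomer mouse 11 at 11% O2, harvested a week later, moved no count of calls by over 1.5 times, but *Cryab* with 11% O2 in monomer mice then had an adjusted p of 0.0547. The median r of a member with the mean of the others was 0.37, and 0.47 on batch-corrected counts.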
